A study of Sus scrofa with 102 samples.

Results

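The genes described here were the 2 receptors of interleukin 1, *IL1R1* and *IL1R2*, and *B2M*, which encodes β2-microglobulin. These 3 genes, of 2202 named in the data, were represented by 7 probes of the 5449 tested on porcine expression arrays: 1 probe that the array annotation assigned to *IL1R1*, 5 that it assigned to *B2M*, and 1 that the study assigned to *IL1R2*. The expression study covered *Longissimus dorsi* muscle of 102 Iberian x Landrace backcross pigs, 1 array per pig, which were fed ad libitum and carried no treatment. The groups were 55 females and 47 males, slaughtered in 3 batches of 14, 70 and 18 pigs (8 females and 6 males, 36 and 34, and 11 and 7). At slaughter the pigs were 171 to 184 days old (171 to 181 days in batch 1, 178 to 184 in batch 2 and 178 to 181 in batch 3), and their carcasses weighed 43.6 to 97.8 kg. All were progeny of a few crossbred boars and Landrace sows, so the pigs are related, and the muscle was assayed as whole tissue.

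Interleukin 1 is an inflammatory cytokine. *IL1R1* encodes its signalling receptor, which recruits an accessory protein and, through MyD88 and IRAK kinases, activates NF-κB and stress kinases. *IL1R2* encodes a decoy that binds the same cytokine but lacks the intracellular signalling domain, so the balance of both receptors sets how strongly a cell can respond. β2-microglobulin is the light chain that every MHC class I molecule needs to reach the cell surface, where the complex shows peptides to cytotoxic T cells. In the pig assembly Sscrofa11.1 of RefSeq, *IL1R2* is the next gene after *IL1R1* in the interleukin 1 receptor cluster. The array annotation gave no *IL1R2* symbol to the probe that the study assigned to this gene. *B2M* has 2 adjacent entries, so the origin of the signal of a *B2M* probe is uncertain between them. Probe sequences were not available, so whether each probe reads the gene it is assigned to was not checked.

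The members were chosen from measured values. *IL1R2* is one of the genes whose expression the study associated with marker genotypes. In these arrays *IL1R1* and 1 *B2M* probe had ranks of 2 and 3 among the closest correlates of another gene of that association analysis. Their correlation with each other, their shared partners and the likeness of their sex differences are therefore given below as a description. The *B2M* probes are called B2M-a to B2M-e in order of their mean level (10.66, 9.93, 7.16, 6.01 and 5.54 log2 units), and B2M-d is the one that ranked so high. Array medians lay between 6.20 and 6.68 on the log2 scale. The 3 measured muscle fibre markers, *TNNT1*, *TNNI1* and *DES*, had mean levels at the 99.6th to 99.98th percentile of all probes. On the single Y-linked probe measured, 3 arrays labelled female lay nearer the male level. The limma differences of the 7 probes were also computed without them. The tests within batches, the log ratio, the correlations and the gene and marker lists were computed only with them.

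*IL1R1*, the signalling receptor, was lower on average in females than in males. Its log2 level in the 55 females ranged from 3.34 through a median of 5.08 to 5.77, with a mean of 4.87 ± 0.46 (SD). In the 47 males it ranged from 4.46 through 5.16 to 8.13, with a mean of 5.54 ± 0.75 (SD). The 2 sexes overlapped and their medians over all batches were close, but 14 males lay above the highest female and 11 females lay below the lowest male. Within batches the medians of females and males were 5.11 and 5.20 in batch 1, 5.09 and 5.48 in batch 2, and 4.74 and 5.09 in batch 3. In addition, 36 of the 102 pigs, 22 females and 14 males, fell between 5.05 and 5.15, a denser band than 97.3% of probes had within any 0.1 log2 units. The *IL1R1* signal was low: its mean over all pigs, 5.18, lay at the 25.4th percentile of all probes. That of *IL1R2*, 7.18, lay at the 64.6th. From the limma model with sex, batch and carcass weight, the level of *IL1R1* in females fell by 0.68 (SE 0.12, log2) relative to males, a 1.61-fold difference (limma, adjusted p = 1.48e-05 over 5449 probes). This sex comparison called 26.1% of all probes (14.4% lower in females), and *IL1R1* ranked 45 of the 5449 by p. Among the 7 probes described here 2 were called, a share near that background.

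The high values of *IL1R1* came from 1 batch. The 13 pigs with the highest levels, 5.91 to 8.13, were all males of batch 2, and the next was a batch 3 male at 5.85. In batch 2 the mean was 4.90 ± 0.49 (SD, n = 36) in females and 5.70 ± 0.80 (SD, n = 34) in males, a female minus male difference of -0.79 (permutation test, two-sided, adjusted p = 0.00021 over 21 tests). In batch 1 the means were 4.97 ± 0.34 (SD, n = 8) and 5.15 ± 0.39 (SD, n = 6), and the difference of -0.17 did not pass (exact permutation test, two-sided, adjusted p = 0.736). In batch 3 they were 4.71 ± 0.44 (SD, n = 11) and 5.13 ± 0.45 (SD, n = 7), and the difference of -0.42 did not pass either (permutation test, adjusted p = 0.348). Males were thus higher on average in each batch, with a test passed in batch 2 alone. A difference of the sex effect between batches was not called for *IL1R1* (limma interaction F test, adjusted p = 0.668), nor for any of the 5449 probes (0%), of which 425 had an unadjusted p below 0.05. In batches 1 and 3 together, a subset chosen after seeing the data, the difference was -0.32 (limma, adjusted p = 0.729).

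*IL1R2*, the decoy, did not follow this pattern. Its level ranged from 5.44 through a median of 7.22 to 8.10 in females (mean 7.15 ± 0.59, SD) and from 6.06 through 7.27 to 8.15 in males (mean 7.20 ± 0.49, SD). The sexes overlapped over almost their whole range, with 1 male above the highest female. The female minus male difference had a 95% interval of -0.29 to 0.13 log2 units. Within batches 1, 2 and 3 it was -0.43, 0.01 and 0.06, and no batch passed (permutation tests, adjusted p = 0.559, 0.968 and 0.968). In the pig with the highest *IL1R1* level, 8.13, the *IL1R2* level was 6.42, below the median of either sex.

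**Figure D1:**
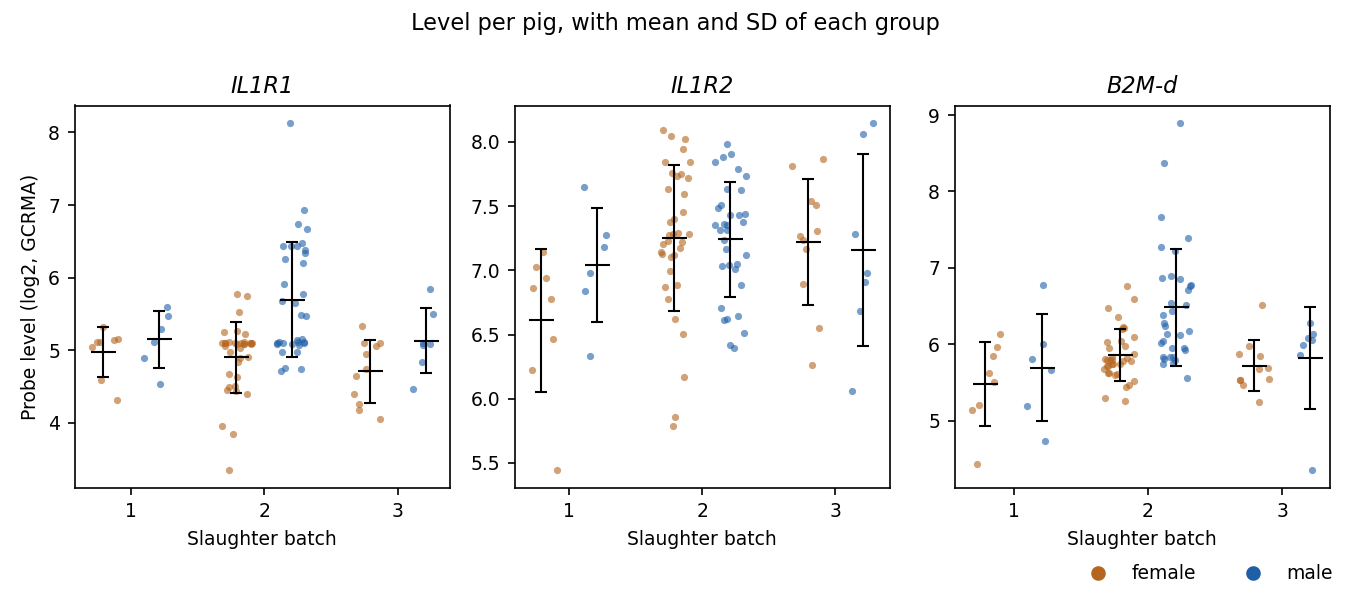
Log2 level of the probes of *IL1R1*, *IL1R2* and B2M-d in each of 102 pigs (points), by slaughter batch on the x axis and by sex in colour; black bars are the mean and SD of each sex within a batch. The upper values of *IL1R1* and of B2M-d belong to males of batch 2, whereas for *IL1R2* the highest values in batch 2 were close in both sexes (8.10 in females and 7.98 in males).

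To set both receptors against each other, the difference of their log2 levels was taken in each pig. Probes differ in affinity, so the size of this log ratio has no meaning by itself and only its differences between pigs were read. It ranged from -4.68 through a median of -2.23 to -0.30 in females and from -3.10 through -1.87 to 1.71 in males. The groups overlapped widely, with means of -2.28 ± 0.80 (SD, n = 55) and -1.66 ± 0.97 (SD, n = 47). After batch and carcass weight were accounted for, the ratio of signalling to decoy receptor in females fell by 0.60 (SE 0.18, log2) relative to males (permutation test of model residuals, two-sided, p = 0.00128, adjusted p = 0.00384 over 3 terms). This is the fitted sex difference of *IL1R1* (-0.68) less that of *IL1R2* (-0.08), so it mostly restates the *IL1R1* result. Within batch 2 alone the female minus male difference was -0.85 (SE 0.24, adjusted p = 0.00084, permutation test), but in batch 1 the ratio was higher in females, with means of -1.64 ± 0.69 (SD, n = 8) against -1.89 ± 0.79 (SD, n = 6) in males. In batch 3 the means were -2.51 ± 0.66 (SD, n = 11) and -2.03 ± 0.57 (SD, n = 7), and these differences in batches 1 and 3 were not tested. Without the 2 pigs farthest from the median ratio the difference over all batches was -0.49 (adjusted p = 0.0105). The ratio showed no difference past the threshold between batches (adjusted p = 0.316) or with carcass weight (slope 0.01, SE 0.09, per 10 kg, adjusted p = 0.904).

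After sex, batch and weight were taken out, *IL1R1* and *IL1R2* leaned in opposite directions across pigs without a clear call. Pearson's r of the residuals was -0.24 (permutation test, two-sided, p = 0.0162, adjusted p = 0.0682 over 21 pairs of probes), and Spearman's rho was -0.28 (permutation test, adjusted p = 0.0488, and 0.0514 in a second run with 20000 permutations, so that it lay at the threshold). With 2 principal components added r was -0.10 (adjusted p = 0.5), and without covariates it was -0.12. Without the 2 pigs farthest from the *IL1R1* median r was -0.15. It was -0.41 in batch 1, -0.28 in batch 2 and 0.14 in batch 3, so the relation was not present within every batch.

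Batch effects were found for 86.6% of probes, and all 7 probes described here were among them, a share read against that background. *IL1R1* had a mean of 5.05 ± 0.36 (SD) in batch 1, 5.29 ± 0.76 in batch 2 and 4.87 ± 0.48 in batch 3, and batch 3 was lower than batch 2 by a fitted difference of -0.43 (SE 0.17, limma adjusted p = 0.0131, against 81.5% of probes called). The batch test of *IL1R1* (limma F test, adjusted p = 0.0293) was lost after quantile normalization (adjusted p = 0.225). *IL1R2* differed in batch 1, where 14 pigs had levels of 5.44 to 7.65 (median 6.90), against 5.79 to 8.10 (median 7.28) in the 70 pigs of batch 2. The fitted difference of -0.53 (SE 0.16, limma adjusted p = 0.0019, against 74.2% of probes called) came with a batch 3 value that did not pass (-0.14, adjusted p = 0.377). Across all probes the median difference was -0.11 for batch 1 and -0.17 for batch 3.

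The 5 probes of *B2M* did not move together between the batches. B2M-a, with the highest level, was higher in both smaller batches: 10.72 to 11.91 (median 11.24) in batch 1 and 10.37 to 11.89 (median 11.07) in batch 3, against 9.75 to 11.58 (median 10.38) in batch 2. These were differences of 0.83 (SE 0.13, limma adjusted p = 2.96e-08) and 0.65 (SE 0.12, adjusted p = 9.37e-07). B2M-c moved the other way in both batches, by -0.53 (SE 0.13) and -0.75 (SE 0.12), as did B2M-d, by -0.60 (SE 0.17) and -0.40 (SE 0.16), and all these passed (limma adjusted p from 1.59e-08 to 0.0192). B2M-b passed in batch 3 only, where its level of 5.39 to 10.17 (median 8.50) compared with 6.82 to 12.26 (median 10.26) in batch 2, a difference of -1.69 (SE 0.26, limma adjusted p = 8.87e-09). For B2M-e the batch 3 difference of -0.43 passed and the batch 1 difference of 0.25 did not (limma adjusted p = 0.0082 and 0.166). Thus in batch 3 a single probe assigned to *B2M* was higher and 4 were lower than in batch 2, where 36.2% of all probes were higher and 45.3% lower. After quantile normalization the batch 3 differences of B2M-d (-0.26) and B2M-e (-0.29) no longer passed. Of 7 macrophage markers, 4 were higher in batch 1 than in batch 2, and in batch 3 there were 2 higher and 3 lower, shares below the 74.2% and 81.5% of all probes called. Of 6 MHC class II genes, 4 were higher and 2 lower in batch 1, and 2 were lower in batch 3. Of 8 fibroblast markers, 5 were higher and 1 lower in batch 1, and 3 were higher and 2 lower in batch 3. Their part in the batch differences of *B2M* was not tested.

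**Figure D2:**
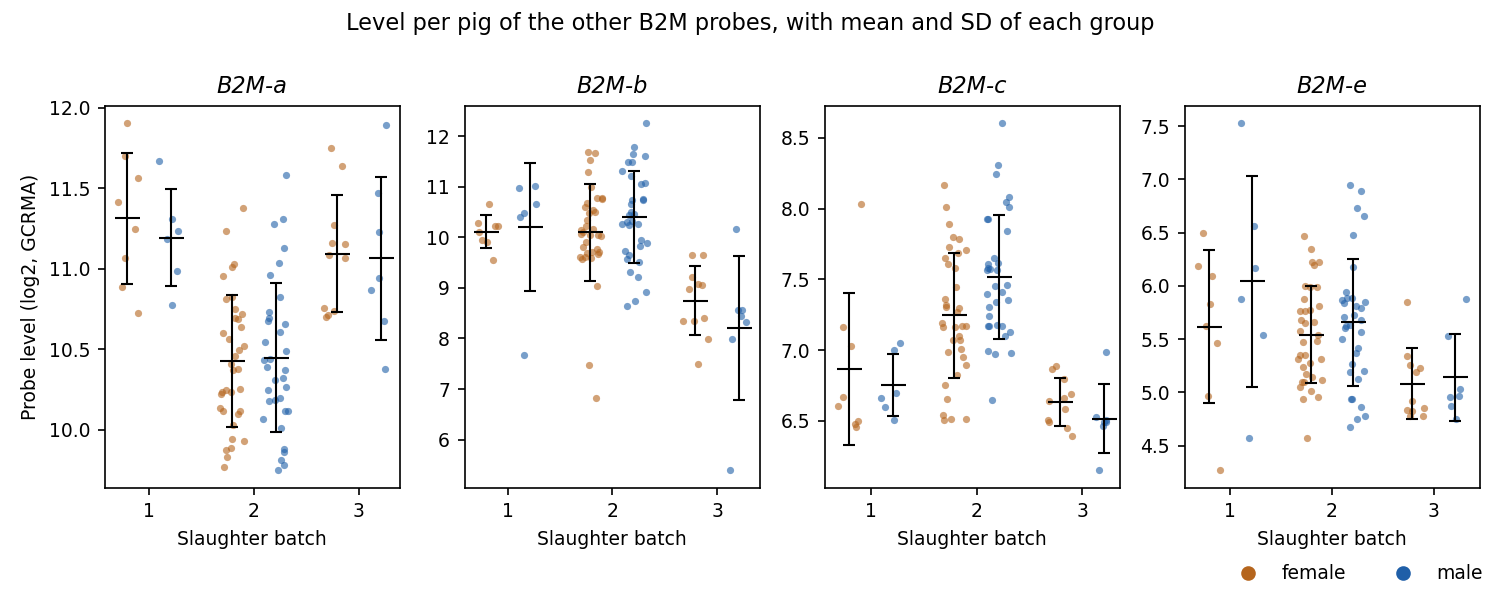
Log2 level of the other 4 *B2M* probes in each of 102 pigs (points), by slaughter batch and sex, with the mean and SD of each sex within a batch as black bars; each panel has its own y axis. B2M-a is lowest in batch 2, whereas B2M-b and B2M-e are lowest in batch 3 and B2M-c is highest in batch 2.

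Among the *B2M* probes a difference between the sexes was called for B2M-d. Its level ranged from 4.43 through 5.78 to 6.77 in females and from 4.35 through 6.12 to 8.90 in males. The ranges overlapped except at the top, where 11 males, 10 of them from batch 2, lay above the highest female. Its level in females fell by 0.50 (SE 0.12, log2) relative to males (limma adjusted p = 0.00085). In batch 2 the female minus male difference of B2M-d was -0.63 (permutation test, adjusted p = 0.00021), and neither other batch passed (-0.22, adjusted p = 0.89, and -0.10, adjusted p = 0.968). The remaining 4 probes did not pass, with differences of 0.01 for B2M-a (95% interval -0.16 to 0.18), -0.13 for B2M-b (-0.50 to 0.25), -0.14 for B2M-c (-0.31 to 0.03) and -0.12 for B2M-e (-0.35 to 0.10). With array weights B2M-c also passed (-0.19, SE 0.08). In batches 1 and 3 together the difference of B2M-d was -0.16 and did not pass.

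**Figure D3:**
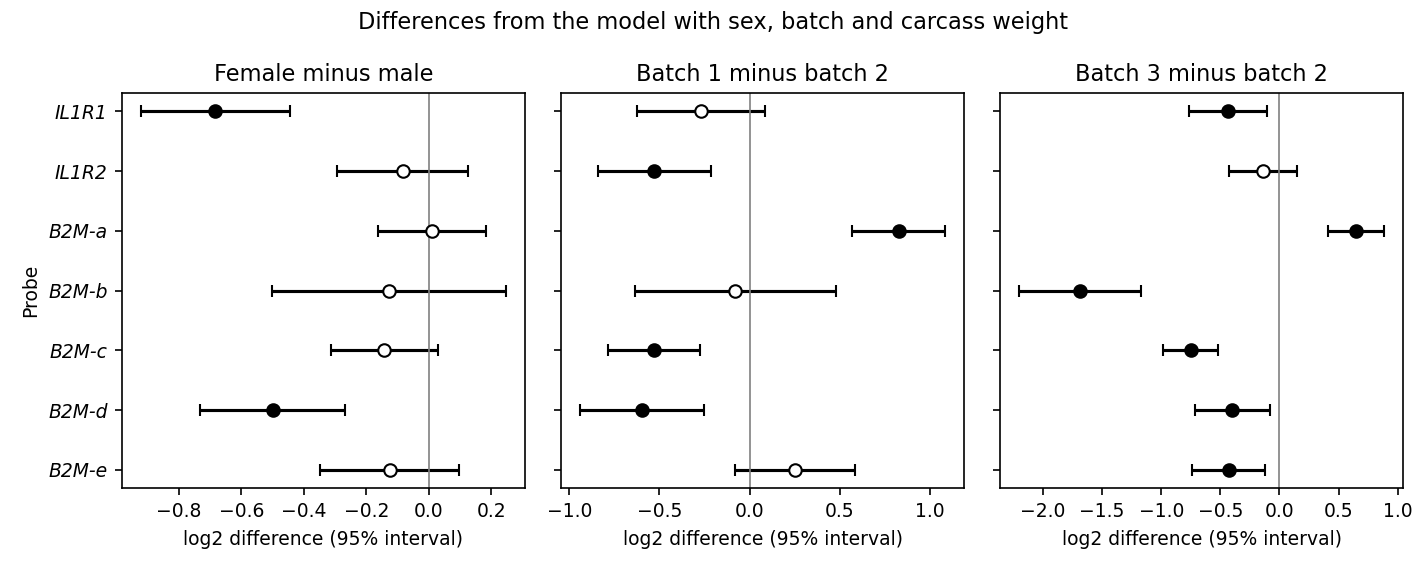
Fitted log2 differences (points) with 95% intervals for the 7 probes: female minus male on the left, and batches 1 and 3 minus batch 2 in the middle and on the right; filled points passed at an adjusted p below 0.05 over all probes. *IL1R1* and B2M-d stand apart by sex, and the *B2M* probes fall on both sides of 0 between batches.

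Probes of a single gene would share its variation across pigs. Among the *B2M* probes this was hardly seen: the 10 pairs had residual correlations between -0.20 and 0.25 (median r = 0.05), and 0 passed (permutation test, two-sided; 2 had an unadjusted p below 0.05). For 365 other genes with more than 1 probe, the median r between probes of the gene had a median of 0.71 and quartiles of 0.57 and 0.82. Without covariates the *B2M* pairs spanned -0.35 to 0.41 and 5 passed. In 14 of the 365 genes, 3.84%, it was at or below that of *B2M*.

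Each *B2M* probe instead had its own company. Partners were the probes, with a single gene symbol, of highest r of residuals over the 102 pigs, and because they were picked for that r it is a description. B2M-a ran with MHC class II genes: *SLA-DRA* (r = 0.69), *SLA-DQB1* (0.66) and *SLA-DMB* (0.62), followed by LOC100513601 (0.61) and *UBD* (0.60), an interferon-inducible ubiquitin-like modifier. B2M-b ran with *OAZ1* (0.89), the antizyme that targets ornithine decarboxylase for degradation, and next with *ENO1* (0.53). B2M-c ran with *CAPZB*, an actin capping subunit (0.82), and with the kinases *CSNK1G2* and *CDK16* (both 0.80). B2M-d ran with LOC102157641 (0.75), *B4GALT5* (0.67), a galactosyltransferase of glycolipid synthesis, and *ODC1* (0.66), ornithine decarboxylase. B2M-e had no partner above 0.46, that of LOC100154081, followed by *C1QTNF3* (0.45) and *COL15A1* (0.45). The probes called with B2M-a to B2M-e, of 5448 tested, were 664, 505, 3100, 1876 and 241 (limma). The partners named for B2M-c and B2M-d are thus a few of many. With 2 principal components added the counts were 1133, 690, 327, 73 and 5. The r of *SLA-DRA* with the 4 other probes of *B2M* was at most 0.10, and that of *OAZ1* at most 0.27.

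**Figure D4:**
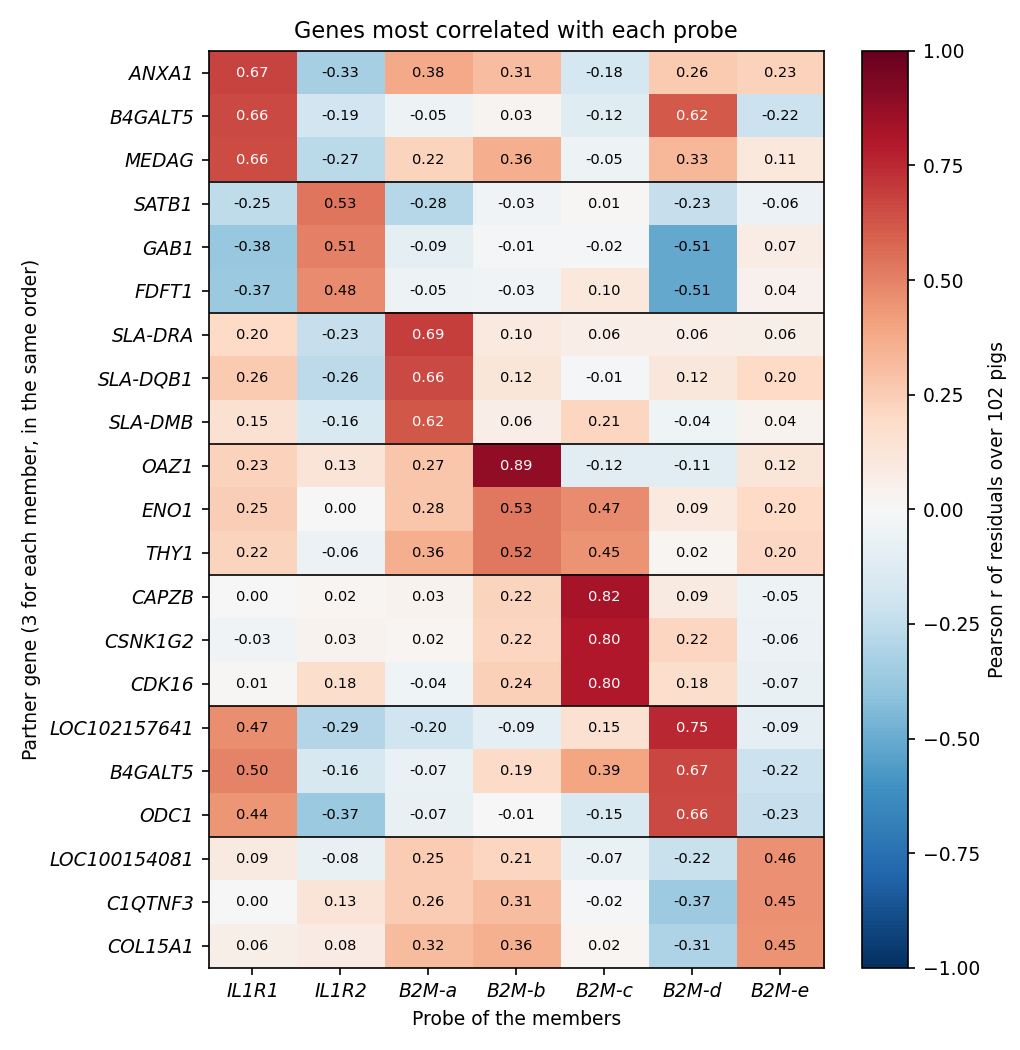
Pearson's r of residuals over 102 pigs between the 7 probes (x axis) and the 3 genes closest to each of them (y axis, in blocks of 3); red is positive and blue negative, with the value in each cell. The highest values lie in the blocks on the diagonal. Off it, the partners of B2M-d had r of 0.44 to 0.50 with *IL1R1*, *B4GALT5* of the *IL1R1* block had 0.62 with B2M-d, *GAB1* and *FDFT1* had -0.51 with B2M-d, and *ENO1* and *THY1* had 0.47 and 0.45 with B2M-c. The partners that *IL1R1* and B2M-d share follow in part from how these probes were chosen.

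Class I genes were used as a further view of the *B2M* probes, since β2-microglobulin pairs with their products. Of 14 class I heavy chain genes and other partners listed, 3 were measured. Both classical and related heavy chains, *SLA-2* (r = 0.51) and *SLA-8* (0.47; 0.40 with its other probe), rose with B2M-a (limma with the residual of B2M-a as a term, adjusted p = 8.32e-06 and 9.17e-05, with 9.84% of all probes called in this direction), while *FCGRT*, the neonatal Fc receptor, had an r of 0.10 (adjusted p = 0.606). With B2M-c, *SLA-2* had an r of 0.60 and *FCGRT* of 0.73, but *SLA-8* of -0.24. These values stand against 3100 of 5448 probes called with B2M-c, 1707 in the same and 1393 in the opposite direction. With B2M-b, *SLA-2* had an r of 0.29 and passed (limma adjusted p = 0.0428), where 307 of 5448 probes were called in this direction. *SLA-8* (0.23, and 0.14 with its other probe) and *FCGRT* (0.20) did not pass with B2M-b. With B2M-d and B2M-e no r of these genes was beyond 0.19 in size. All 6 measured MHC class II genes rose with B2M-a (median 0.33 log2 units per SD of B2M-a, against 0.01 over all probes). Of 6 measured genes for peptide loading and its regulators, 3 rose with it: *IRF1*, an interferon-responsive transcription factor (r = 0.43), *TAPBP*, tapasin (0.34), and *PSMB10*, an immunoproteasome subunit (0.30). In batch 2 alone 0 of the 6 were called, and after quantile normalization 1.

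The correlation of *IL1R1* with *B2M* depended on which probe assigned to that gene was taken. With B2M-d it was 0.57 over 102 pigs, 0.70, 0.62 and 0.13 in batches 1, 2 and 3, and 0.15 in females against 0.74 in males; this difference between the sexes was not tested. The pig with the highest *IL1R1* level also had the highest B2M-d level, 8.90, and without it r was 0.47. With 2 principal components added r was 0.36. Of the 13 pigs highest in *IL1R1*, 8 were among the 13 highest in B2M-d. With B2M-a, in contrast, r was 0.15 (permutation test, two-sided, adjusted p = 0.311). With B2M-b it was 0.26 (permutation test, adjusted p = 0.0562), and -0.07, 0.23 and 0.65 in batches 1, 2 and 3. The batch 3 value passed (permutation test, adjusted p = 0.0168), as did r without covariates (0.32, adjusted p = 0.00525). With B2M-c and B2M-e r was -0.04 and -0.08. *IL1R2* leaned against B2M-d, with r = -0.25 (adjusted p = 0.0562) and rho = -0.26 (adjusted p = 0.0488 and 0.0514 in the 2 runs, permutation tests), which became r = -0.09 with 2 principal components added, and its r with B2M-a was -0.16 (adjusted p = 0.29).

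**Figure D5:**
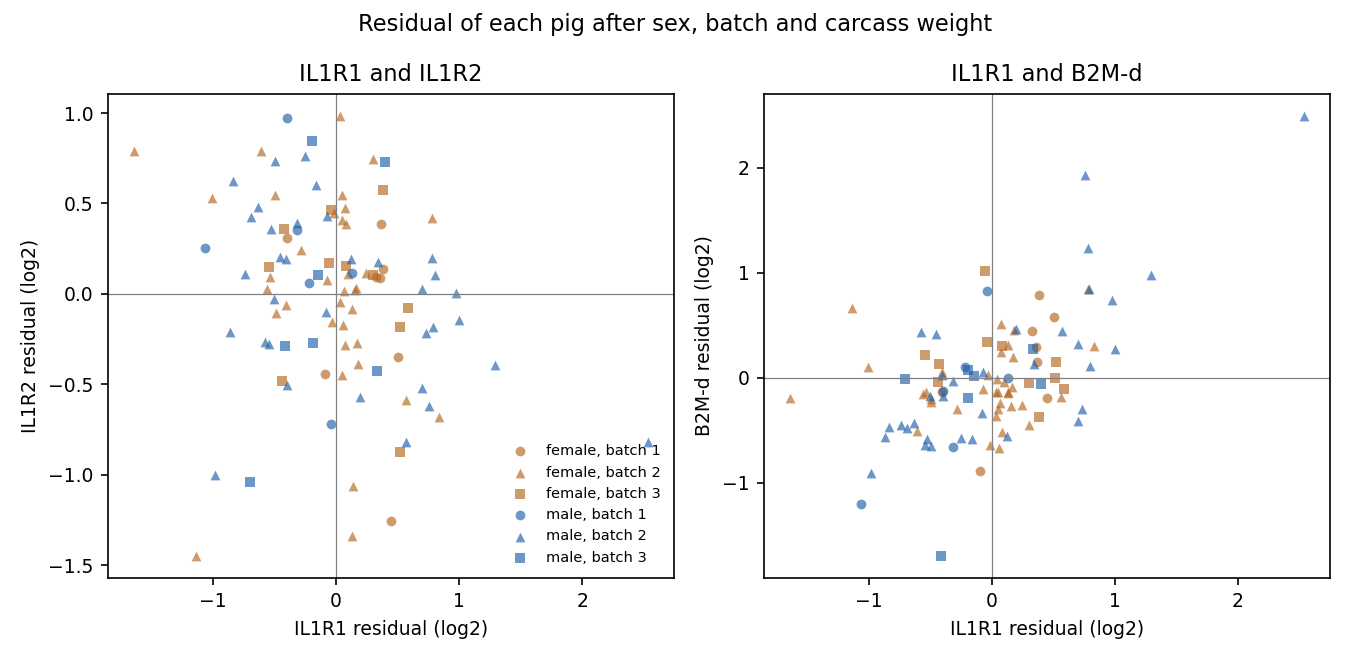
Residual log2 level of *IL1R1* (x axis) against that of *IL1R2* (left) and of B2M-d (right) in each pig after sex, batch and carcass weight, with sex in colour and batch by symbol. The cloud on the left tilts slightly downward (r = -0.24), and the cloud on the right rises (r = 0.57) with a single batch 2 male at the upper right.

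Both receptors also differed in the genes that moved with them. With the residual of *IL1R1* as a term, 1279 probes, 23.5%, were called (14.9% in the same and 8.55% in the opposite direction), and with that of *IL1R2* 224 probes, 4.11%. The partners closest to *IL1R1* were *ANXA1* (r = 0.67), the glucocorticoid-regulated annexin that dampens inflammation, *B4GALT5* (0.66), *MEDAG*, an adipogenesis gene (0.66), *MYADM* (0.66) and *TNFRSF1B*, a receptor of tumour necrosis factor (0.65). Against it ran both probes of *SIX4*, a myogenic transcription factor (-0.60 and -0.59), and *TBCC*, a tubulin folding cofactor (-0.58). These genes had the opposite sign with *IL1R2* where compared: *ANXA1* had r = -0.33, *MEDAG* -0.27 and *B4GALT5* -0.19 with the decoy. The genes closest to *IL1R2* in turn ran against *IL1R1*, with r of -0.25 for *SATB1*, -0.38 for *GAB1* and -0.37 for *FDFT1*. All these partners were picked from the same residuals, in which both receptors had r = -0.24 with each other. Opposite signs follow in part from that choice and are given as a description.

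Macrophage markers rose with *IL1R1*, and several fell with *IL1R2*. All 7 measured of 14 listed rose with *IL1R1* (limma, median 0.29 log2 units per SD, against 0.00 over all probes), led by *CD163*, the haemoglobin scavenger receptor (0.65, SE 0.08, adjusted p = 8.2e-10), and *MRC1*, the mannose receptor (0.43, SE 0.07, adjusted p = 2.41e-06). With *IL1R2*, 4 of the same 7 fell and 0 rose (median -0.23, against 0.00 over all probes, with 1.8% of probes called in this direction), among them *TYROBP*, an immune receptor adaptor (-0.26, SE 0.07, adjusted p = 0.0145), and *CD163* (-0.36, SE 0.10, adjusted p = 0.0205). In batch 2 alone the counts were 6 for *IL1R1* and 2 for *IL1R2*. All 7 also rose with B2M-a (median 0.34), and 4 did so in batch 2 alone. Markers of other cells moved with the same probes. With *IL1R1*, 4 of 6 endothelial, 3 of 8 fibroblast, 2 of 4 adipocyte and 0 of 3 muscle fibre markers rose, against 14.9% of all probes. So did 3 of 6 MHC class II genes and 3 of 6 genes for class I peptide loading and its regulators. With B2M-a, 5 of 6 endothelial, 4 of 8 fibroblast, 3 of 4 adipocyte and 2 of 3 muscle fibre markers rose, against 9.84% of all probes. With *IL1R2*, 0 markers of these 4 cell types were called, against 4.11% of all probes. Fewer cells of a type and less RNA per cell cannot be told apart in whole muscle.

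The other genes of the pathway gave counts near the background of 14.9% of all probes rising with *IL1R1*: 1 of 5 measured genes induced by interleukin 1 (of 23 listed), 1 of 6 adaptors and kinases of the receptor, and 1 of 5 NF-κB factors and regulators. *CCL2*, a monocyte chemoattractant, rose with *IL1R1* (0.52 log2 units per SD, SE 0.10, limma adjusted p = 2.45e-05), and with *IL1R2* its value was -0.33 (adjusted p = 0.0532). The others had values with *IL1R1* of 0.09 for *VCAM1*, an adhesion molecule, 0.34 for *CXCL2*, a neutrophil chemoattractant, and 0.16 and 0.09 for the related transcription factors *CEBPD* and *CEBPB*, none passing (adjusted p from 0.0713 to 0.212). All 5 values were thus positive (median 0.16, against 0.00 over all probes), and 4 had an unadjusted p below 0.05 (limma). With B2M-d, 4 of the 5 rose (median 0.22, against 0.01), where 1059 of 5448 probes were called in this direction. Between the sexes 3 of the 5 were called, 2 lower and 1 higher in females (limma, median -0.27, against -0.03), where 26.1% of all probes were called. Of the adaptors and kinases 1 of 6 was lower in females, and of the NF-κB genes 1 of 5, against 14.4% of all probes. Among the adaptors and kinases, *PELI1*, a ubiquitin ligase acting on IRAK kinases, rose with *IL1R1* (0.17, SE 0.03, adjusted p = 0.00013), and *MAP2K6*, a kinase upstream of p38, rose with *IL1R2* (0.20, SE 0.06, adjusted p = 0.0477). Among the NF-κB genes, *CYLD*, a deubiquitinase that restrains NF-κB, rose with *IL1R1* (0.21, SE 0.05, adjusted p = 0.00072). The one measured ligand of the family, *IL18*, had r of 0.14 with *IL1R1* and -0.28 with *IL1R2*, and passed with neither (adjusted p = 0.328 and 0.0736).

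Markers of other cells were also compared between the sexes. Of the 7 macrophage markers, 0 differed between the sexes (limma, 0 also at an unadjusted p below 0.05), and their mean log2 level spanned 3.70 to 7.36 in females and 3.47 to 6.76 in males. Of 6 endothelial markers, 3 were lower in females, the direction of *IL1R1*, against 14.4% of all probes. The median of the 6 was -0.24, against -0.03 over all probes. Their mean level spanned 6.00 to 7.52 in females and 5.99 to 8.54 in males. In either direction, 2 of 8 fibroblast, 1 of 4 adipocyte, 1 of 2 mast cell and 0 of 3 muscle fibre markers were called, against 26.1% of all probes. Mean levels in females and males were 8.10 and 7.87 for fibroblast, 8.17 and 8.05 for adipocyte and 5.01 and 4.84 for mast cell markers. For muscle fibre markers they were 13.39 and 13.59. The part of these markers in the sex difference of *IL1R1* was not tested. Lymphocyte and neutrophil markers had 0 measured genes. The log2 difference between the 5′ and middle actin control probes, a measure of RNA integrity, had means of -1.28 for batch 1, -0.80 for the second and -1.32 for the third. Its residual r with B2M-c was 0.43, while for the other 6 probes r lay between -0.14 and 0.07, and with it added as a covariate the batch 3 difference of B2M-d (-0.37) no longer passed.

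Carcass weight had no called relation with any of the 7 probes, nor with any of the 5449 (0%; limma, 589 at an unadjusted p below 0.05). The largest slopes were those of *IL1R2*, -0.11 per 10 kg (SE 0.06, adjusted p = 0.473), and *IL1R1*, -0.10 (SE 0.06, adjusted p = 0.563), both of the same sign.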

How the data were processed

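The authors hybridised *Longissimus dorsi* RNA of 102 pigs to Affymetrix porcine arrays, scanned them under GCOS, inspected array quality in AffyPLM, and used BRB-ArrayTools for GCRMA background correction and normalization. The deposited values are log2 intensities. Per the study's methods, probes were kept by a minimum fold-change filter on these same arrays, so genes that vary little are not analysed here. Of 5493 probes, 44 controls were left out. Arrays carry no counts, and the number of pigs limits precision.

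For each of the 5449 remaining probes a linear model with terms for sex, batch of slaughter and weight of the carcass was fitted in limma 3.58.1 (R 4.3.3) with moderated variances. The Benjamini-Hochberg method was applied across probes to the two-sided p-values, with a threshold of 0.05. Genes moving with a probe were tested by adding its residual, in SD, as a term. The receptor log ratio and correlations of residuals were tested with 100000 permutations in Python 3.11.15 (numpy 2.4.6, scipy 1.17.1). Fits were tested on simulated data: of probes shifted by 1 SD, 91% were found for sex and 67% for batch. Of probes given a smaller shift, 17% were found for sex and 5% for batch. The simulated probes were independent and few were shifted, unlike the probes of these arrays, so these shares do not give the power here. Related pigs were treated as independent, without the pedigree. No pair of arrays was identical (array correlations 0.605 to 0.977).

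Gene symbols came from the array annotation (2639 probes with 1 symbol, 49 with several, 2761 with none). Named genes were all member probes, the 5 closest and 3 most opposed partners of each main probe (a rule applied to the other *B2M* probes too), and listed genes with the smallest p. Lists used 1 probe per gene, that with the highest mean. The members and lists were chosen with earlier results of these data known. Alternatives covered normalization, covariates, samples and filters.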

Additional observations from a re-analysis of the deposited data

Results flagged for a closer look

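Within sex and batch, 21 groups of 6 to 8 pigs could be examined for single pigs standing apart, and chance alone flags about 1 in 20 such groups. In 3 groups a pig did. The lowest of the 6 males of batch 1 for B2M-b was 7.68, and the next was 10.41. The highest of the 8 females of batch 1 for B2M-c was 8.03, and the next was 7.16. The lowest of the 7 males of batch 3 for B2M-d was 4.35, and the next was 5.86. No group of *IL1R1* or *IL1R2* held such a pig among those of this size.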

How the results depend on the processing

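The sex difference of *IL1R1* kept its direction and its call under every alternative run except batches 1 and 3 only (-0.32, adjusted p = 0.729). Its batch F was 1.59 after quantile normalization and 3.08 without other covariates, neither passing (adjusted p = 0.225 and 0.0567). Several values that did not pass changed sign, again without passing. For sex these were B2M-a with array weights (-0.014) and in batch 2 only (-0.045), and in batches 1 and 3 only B2M-b (0.26) and B2M-c (0.12). For weight they were *IL1R1* (0.043) and B2M-d (0.089) without other covariates, B2M-a with array weights (-0.0095), without the 2 farthest pigs (-0.00035) and in batch 2 only (-0.049), B2M-b with array weights (-0.038) and in batch 2 only (-0.051), and B2M-c with RNA integrity added (-0.0071). The weight slope of B2M-a without other covariates was -0.12 (adjusted p = 0.0462). The batch 1 difference of B2M-b was 0.15 after quantile normalization. The log ratio of the receptors changed sign for batch 1 with age added (-0.066) and for weight in batch 2 only (-0.085). Correlations changed sign in batch 3 for *IL1R1* with *IL1R2* (0.14) and *IL1R2* with B2M-d (0.090), in batch 1 for *IL1R2* with B2M-a (0.085), and without covariates for *IL1R1* with B2M-a (-0.044), where *IL1R2* with B2M-a passed (r = -0.26, adjusted p = 0.0241). The median r of the *B2M* pairs was 0.25 in batch 1. Probes moving with *IL1R1* were 790 with 2 principal components added. Those with *IL1R2* were 392 after quantile normalization, 123 with 2 principal components and 147 without the pig highest in *IL1R1*, and those with B2M-a were 1366 after quantile normalization, 1133 with 2 principal components and 78 in batch 2 only. In batch 2 only, macrophage markers moving with *IL1R2* were 2 and with B2M-a 4, and class I loading genes moving with B2M-a were 0, or 1 after quantile normalization. Interleukin 1 induced genes moving with *IL1R1* were 3 with RNA integrity and 2 with 2 principal components added. The cause of these changes was not tested. Another probe of *IL1R1* was planned as an alternative and was not run, as the gene has 1 probe. Batches 1 and 3 only and the pig highest in *IL1R1* were alternatives chosen after seeing the data. No paired analysis was possible because each pig has its own number and sexes and batches share none.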
